A study of Rattus norvegicus with 12 samples.

Results

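The vitamin K dependent Gla proteins and the enzymes that modify them were described here as 7 rat genes: the Gla proteins Bglap (osteocalcin), Mgp (matrix Gla protein), Gas6 (growth arrest specific 6) and Pros1 (protein S), and the carboxylation enzymes Ggcx, Vkorc1 and Vkorc1l1. They were chosen by gene symbol, and they are 7 of the 17379 genes and unnamed transcripts in the tables. Each was represented by 1 RefSeq transcript, so its value is that of a single transcript. The 12 RNA-seq libraries came from male SAS Fischer rats of 200 to 225 g, with 3 libraries in each of 4 groups and 1 ug of total RNA per library. The normal group held fracture hematomas, the clot and early tissue that fill a bone gap, from femoral defects of 0.5 mm that heal normally. The delayed group held hematomas from 1.5 mm defects with delayed healing, and the nonunion group hematomas from 5.0 mm defects that do not heal. The preOP group held healthy femur, taken out when the 5.0 mm defects were cut, with no treatment. No transgene, mutant allele or drug is named for any group. The time between surgery and collection is not given in the sources used here, nor is it stated that each library came from a separate animal, so the p-values below measure the spread between these samples, which may be technical.

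Gla proteins carry gamma-carboxyglutamate, a modified glutamate that binds calcium. The enzyme gamma-glutamyl carboxylase (Ggcx) makes it in the endoplasmic reticulum and uses up reduced vitamin K in doing so, and vitamin K epoxide reductase (Vkorc1), the target of warfarin, recycles the vitamin, with Vkorc1l1 as its paralog. In bone, osteocalcin is a product of mature osteoblasts that is stored in mineralised matrix, and matrix Gla protein is a calcification inhibitor made by chondrocytes and vascular smooth muscle. Gas6 and protein S are ligands of the receptor tyrosine kinases Tyro3, Axl and Mertk, and protein S is also an anticoagulant cofactor of activated protein C.

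The largest differences among the 7 genes were those of Bglap, so the 250 bases before its annotated start are shown as RefSeq gives them. They lie on build GRCr8 at chr2:176137319-176137568, on the minus strand, and are written 5′ to 3′ along the gene. Capitals mark, in order, a Runx core (AACCACA), a homeobox core as found in the osteocalcin box (CAATTAG) and a TATA box (TATAAA).
Bglap promoter: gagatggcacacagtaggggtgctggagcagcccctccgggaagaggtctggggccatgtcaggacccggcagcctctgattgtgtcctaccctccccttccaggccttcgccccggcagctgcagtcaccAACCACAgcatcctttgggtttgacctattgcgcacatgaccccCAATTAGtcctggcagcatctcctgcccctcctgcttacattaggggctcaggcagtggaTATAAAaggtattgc
The first base of these matches lay 119, 75 and 15 bases before the annotated start, respectively. On either strand of 33469 rat promoters of the same length, AACCACA was found in 4.59%, CAATTAG in 1.76% and TATAAA in 12.9%. Promoters were matched for 6 of the 7 genes, all but Mgp. None of these 3 motifs was found in the windows of Gas6, Pros1, Ggcx, Vkorc1 or Vkorc1l1. The GC box GGGCGG, found in 30.5% of promoters, was present in those of Gas6, Pros1, Ggcx and Vkorc1l1 and not in those of Bglap and Vkorc1. The Bglap window was 59.2% G and C with 5 CpG dinucleotides, against 84.0% and 45 in that of Vkorc1l1. A match of letters is a description of the sequence and not a binding site.

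The libraries held 16808993 to 24325162 estimated reads each, and levels are given as CPM, reads scaled to a common library size, with scaling by trimmed mean of M values (TMM). Some libraries stood apart. In nonunion library 2, 72.24% of reads were ribosomal RNA, against at most 1.75% elsewhere, and in delayed library 2, 2.641% of reads came from 5 muscle markers. Summed levels of 5 adipocyte markers were 10685 CPM in nonunion library 2 and at most 1660 CPM in any other library. Globin transcripts took 15.66 to 23.98% of reads in preOP and 0.03 to 2.96% in the hematomas. Summed levels of 4 red cell markers were 110660 to 187920 CPM in femur and 878 to 19491 CPM in hematomas. The normal libraries also differed from the rest in a way that follows transcript length. The median shortening from full to effective length was 157.2 to 191.6 bases in the normal libraries and 194.3 to 254.6 bases in all others. Of 778 tested genes with transcripts of up to 800 bases, 16.8% were lower and 1.41% higher in delayed than in normal hematomas, with a median log2 fold change of -0.80, while above 2000 bases 2.05% were lower and 3.74% higher. The median for transcripts of up to 800 bases was -0.78 in nonunion against normal and 0.72 in normal against preOP. Bglap (487 bases), Mgp (521 bases) and Vkorc1 (757 bases) are the shortest of the 7 genes, so each comparison of them with the normal group is also given after a correction of every library for its trend with length, an analysis added after the data were seen. All normal libraries share this feature, so it cannot be told apart from the group.

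Bglap had the widest range of the 7 genes. It stood at 79.8, 84.7 and 68.8 CPM in normal hematomas, at 1.15, 1.75 and 0.887 CPM in delayed hematomas, at 0.712, 1.23 and 0.579 CPM in nonunion hematomas, and at 232, 259 and 190 CPM in femur. Every femur library was above every normal library, every normal library was above all 6 libraries of the larger defects, and the delayed and nonunion libraries overlapped. Bglap still gave 8 to 34 estimated reads in each delayed and nonunion library, above the limit of 3 reads that a count of 0 allows.

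**Figure D1:**
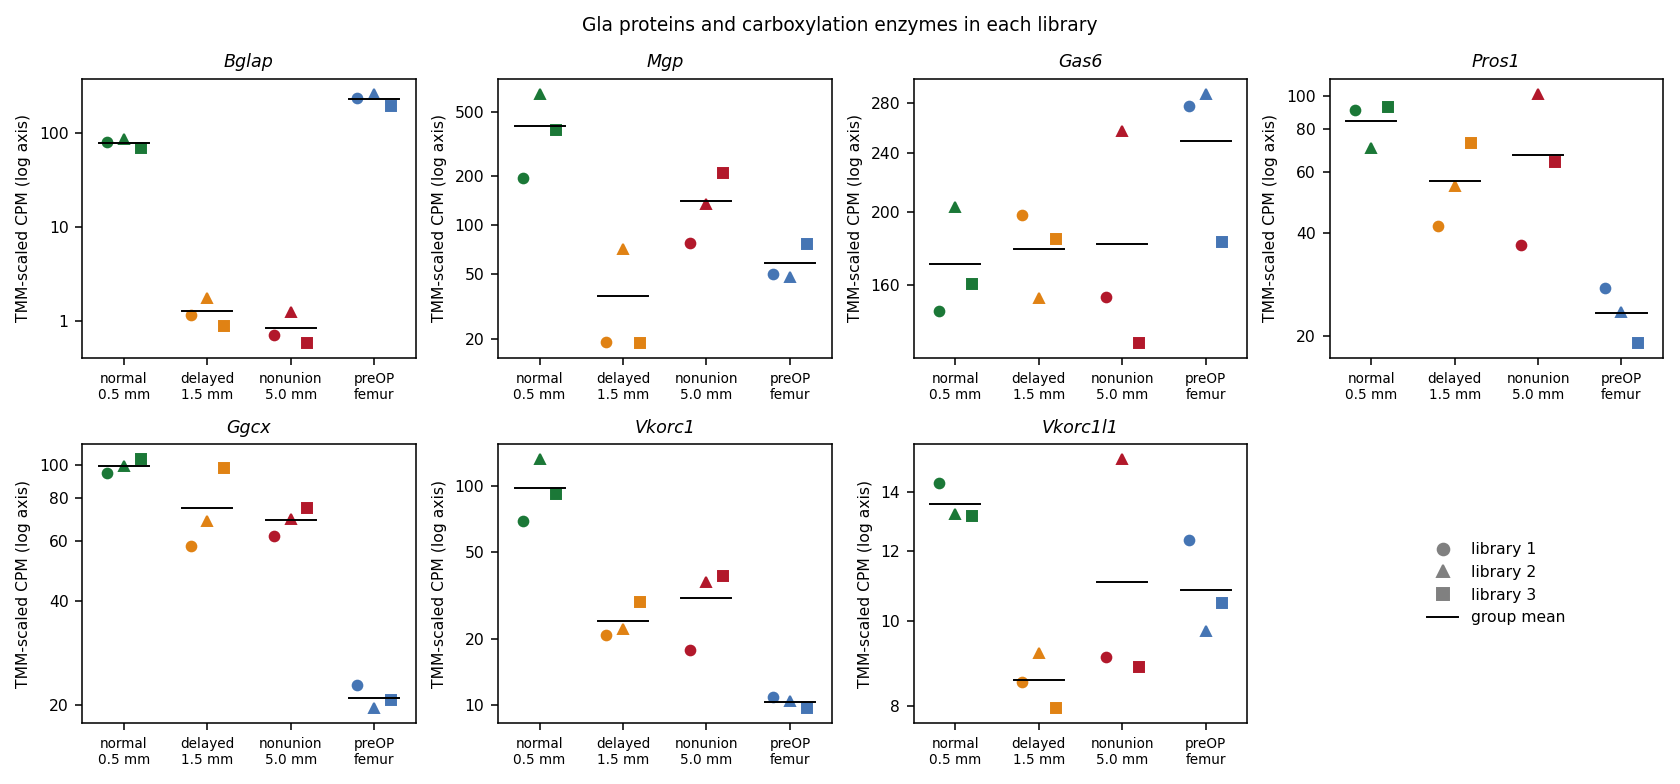
Level of each of the 7 genes in each library, as TMM-scaled CPM on log axes with a separate range per panel; symbols mark libraries 1, 2 and 3 of a group and lines the group means (n = 3). Bglap falls into 3 levels, near 227 CPM in femur, 77.7 CPM in normal hematomas and about 1 CPM in the larger defects, while the Gas6 groups overlap.

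Bglap was 62.5-fold lower in delayed than in normal hematomas (log2 fold change -5.97, SE 0.39, adjusted p = 0.000467, edgeR quasi-likelihood test with Benjamini-Hochberg adjustment over all genes, as for all adjusted p-values below). In nonunion against normal hematomas it was 102-fold lower (log2 fold change -6.68, SE 0.41, adjusted p = 0.000274). Both calls held without each library in turn. With the length correction the log2 fold changes were -4.95 and -5.77, with adjusted p of 0.00292 and 0.00266. Nonunion and delayed hematomas differed by -0.71 (SE 0.35, adjusted p = 0.757), which did not pass the test. In bulk tissue, fewer cells of a type and less RNA per cell cannot be told apart. Of the osteoblast markers, 5 of 7 were lower in delayed and 3 of 7 in nonunion than in normal hematomas, and 4 of 4 osteocyte markers were lower in both, where 4.44% and 1.48% of all tested genes were lower. Several of these calls were lost when 1 library was left out. With each of the 9 hematoma libraries left out in turn, Sp7 was lost in 6 fits, Phex in 4 and Sost in 2 in delayed against normal. In nonunion against normal Sost was lost in 8, Dmp1 in 6, Dkk1 in 5 and Dlx5 in 1. Ibsp, Alpl and Mepe were lost in none. Over the 3 delayed libraries, Sp7, Dlx5, Phex, Mepe and Sost held 20, 16, 13, 15 and 1 estimated reads. Over the 3 nonunion libraries, Mepe held 5, Sost 4 and Dlx5 39. Among hematomas these genes passed the low-count filter only through the normal group, so the sizes of their changes are uncertain. The part of cell content in the Bglap difference was not tested.

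Against femur, Bglap was lower in all 3 kinds of hematoma. In normal hematomas it was 2.92-fold lower (log2 fold change -1.55, SE 0.29, adjusted p = 0.00188), and with the length correction the log2 fold change was -2.31 (adjusted p = 0.000781). On log2(TPM + 1) values tested with limma this call was lost (log2 fold change -1.32, adjusted p = 0.151). The difference from femur was 180-fold in delayed (log2 fold change -7.49, SE 0.38, adjusted p = 5.86e-06) and 289-fold in nonunion hematomas (log2 fold change -8.18, SE 0.40, adjusted p = 4.07e-06).

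Bglap and the other bone markers did not keep the same order between normal hematomas and femur. Of 7 osteoblast markers, 6 were higher in normal hematomas than in femur, where 20.5% of all tested genes were higher, with a median log2 fold change of 2.95 over all 7, and all 4 osteocyte markers were higher, with a median of 3.03. The Sp7 and Dmp1 calls were each lost in 5 of the 12 fits that left out a library, and the other 8 calls in none. Sost held 82 estimated reads in normal hematomas and 1 in femur, so it passed the low-count filter only through the normal group. Over all 12846 tested genes the median was -0.09. Ibsp, the matrix protein bone sialoprotein, stood at 987 ± 172 CPM in normal hematomas and 158 ± 50.6 CPM in femur (SD, n = 3), a log2 fold change of 2.64 (SE 0.34, adjusted p = 0.000276). Alpl, the alkaline phosphatase of mineralising cells, was also higher (2.95, SE 0.47, adjusted p = 0.000827). Within a library, the TPM (abundance per transcript length) of Ibsp were 1.86 to 3.20 times those of Bglap in normal hematomas and 0.0878 to 0.146 times in femur, a ratio that does not depend on the scaling between libraries.

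**Figure D2:**
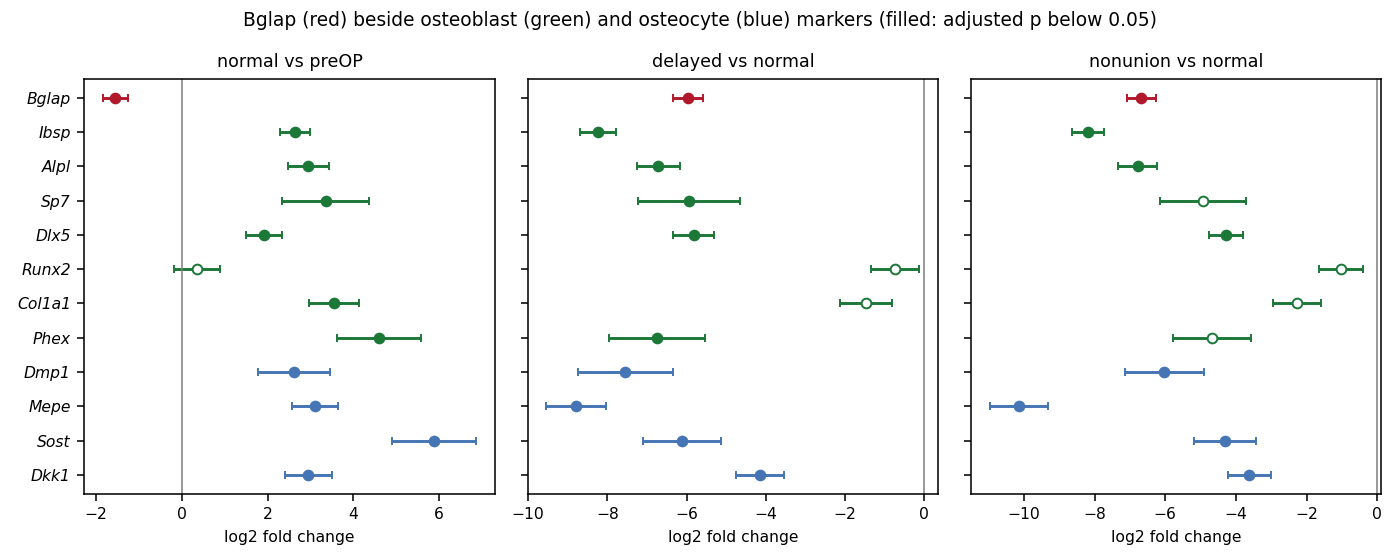
Log2 fold change (bars, SE) of Bglap, 7 osteoblast and 4 osteocyte markers in normal hematomas against femur and in delayed and nonunion against normal hematomas; filled points passed an adjusted p of 0.05. Bglap is at -1.55 in the first panel, where 10 of the 11 bone markers are called higher, and is lower with most of them in the other panels. Sost, Mepe, Sp7, Dlx5 and Phex passed the low-count filter among hematomas only through the normal group, as did Sost in the first panel.

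The genes whose levels were most like those of Bglap over the 12 libraries were not bone genes. Among 9597 genes with a mean of at least 5 CPM, the highest Pearson correlations of log2 CPM with Bglap were those of Defa5 (r = 0.985), RatNP-3b (r = 0.980) and Np4 (r = 0.979), which encode neutrophil defensins. Defa5 averaged 469 CPM in normal, 3.64 CPM in delayed and 2.52 CPM in nonunion hematomas and 1062 CPM in femur. These genes are related, so how reads were divided among them may be uncertain, and the points share library and group. The summed level of 4 neutrophil markers was 7263 to 9327 CPM in femur, 1377 to 8656 CPM in normal, 72.2 to 930 CPM in delayed and 48.4 to 608 CPM in nonunion hematomas. Most of that sum came from S100a8 and S100a9. Csf3r of the same list averaged 48.4 CPM in normal, 88.5 CPM in delayed and 59.6 CPM in nonunion hematomas and 114 CPM in femur. In edgeR, none of the 4 markers was called in delayed or nonunion against normal hematomas or in normal hematomas against femur. In delayed and in nonunion hematomas 3 of the 4 were lower than in femur, where 15.6% and 14.9% of all tested genes were lower. The part of marrow content in the Bglap levels was not tested.

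Mgp had its highest mean in normal hematomas, in CPM and in TPM. Its lowest mean was that of delayed hematomas in CPM and that of femur in TPM, and these 2 groups overlapped in CPM. It stood at 196, 643 and 384 CPM in normal, 19.2, 71.6 and 18.9 CPM in delayed, 77.8, 135 and 211 CPM in nonunion hematomas, and 49.8, 48.1 and 76.9 CPM in femur. Delayed libraries were below every normal and every nonunion library, the normal and nonunion libraries overlapped, and delayed library 2 reached into the femur range. Mgp was 11.3-fold lower in delayed than in normal hematomas (log2 fold change -3.50, SE 0.68, adjusted p = 0.0229).

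That call depended on which libraries were kept. It was lost without normal library 2 (log2 fold change -2.99, adjusted p = 0.0761), normal library 3 (-3.51, 0.0674), delayed library 1 (-3.20, 0.0786) or delayed library 3 (-3.20, 0.0729). Without delayed library 2 the log2 fold change was -4.39 (adjusted p = 0.0142). With the length correction it was -2.37 and the call was lost (adjusted p = 0.0648), as it was with limma on log2(TPM + 1) values (-3.07, adjusted p = 0.123). Nonunion against normal gave -1.57 (SE 0.63, adjusted p = 0.202), or -0.61 with the length correction (adjusted p = 0.651), and nonunion against delayed gave 1.93 (SE 0.64, adjusted p = 0.563), and none of these values passed.

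Mgp was higher in normal hematomas than in femur by 2.81 on the log2 scale (SE 0.63, adjusted p = 0.00488), and by 1.96 with the length correction (adjusted p = 0.0161). Delayed hematomas gave -0.67 (SE 0.59, adjusted p = 0.434) and nonunion hematomas 1.28 (SE 0.60, adjusted p = 0.135) against femur. The nonunion value passed without delayed library 2 (1.38, adjusted p = 0.0389), without both delayed 2 and nonunion 2 (1.47, adjusted p = 0.0364) and when these 2 groups alone were fitted (1.39, adjusted p = 0.0417). Markers of cells known to make Mgp moved with it in part. In normal hematomas against femur, 5 of 5 chondrocyte and 4 of 6 smooth muscle and pericyte markers were higher, against 20.5% of all genes. In delayed against normal, 3 of 5 and 1 of 6 were lower, against 4.44% of all. In nonunion against normal, 4 of 5 and 0 of 6 were lower, against 1.48% of all, while Mgp was not called. Col9a1 held 238 estimated reads in normal, 8 in delayed and 1 in nonunion hematomas, and 21 in femur. Col2a1 held 6 in nonunion hematomas. Among hematomas both passed the low-count filter only through the normal group, as did Col9a1 in the comparison with femur. The sizes of these changes are therefore uncertain. Summed chondrocyte markers were 182 to 443 CPM in normal and 26.5 to 32.8 CPM in delayed hematomas. They were 4.62 to 53.9 CPM in nonunion hematomas and 12.2 to 43.2 CPM in femur. Summed smooth muscle and pericyte markers were 668 to 1059 CPM in normal, 145 to 403 CPM in delayed and 431 to 1148 CPM in nonunion hematomas, and 136 to 174 CPM in femur. The part of either cell type in the Mgp levels was not tested. The genes most like Mgp were Gja4, a gap junction gene (r = 0.949), Tm4sf1 (r = 0.935) and Nudt14 (r = 0.928), again by Pearson correlation over the 12 libraries.

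Gas6 showed no call in any of the 6 comparisons. It stood at 148, 203 and 161 CPM in normal, 198, 154 and 184 CPM in delayed, 154, 257 and 134 CPM in nonunion hematomas, and 278, 288 and 182 CPM in femur. Every pair of groups overlapped. The log2 fold changes among hematomas were 0.06 for delayed against normal (SE 0.30, adjusted p = 0.918) and 0.02 for nonunion against normal (SE 0.30, adjusted p = 0.977). Against femur the log2 fold changes ran from -0.55 in normal (adjusted p = 0.150) to -0.46 in nonunion hematomas (adjusted p = 0.271). The closest patterns to Gas6 were those of Scd, a fatty acid desaturase (r = 0.907), Shpk (r = 0.830) and Mcpt1l1 (r = 0.827). Scd ranged from 4.59 to 245 CPM in nonunion hematomas and from 66.2 to 247 CPM in femur. Its range was 9.82 to 21.2 CPM in normal and 6.60 to 24.2 CPM in delayed hematomas.

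Pros1 was higher in all hematomas than in femur. It stood at 91.0, 70.6 and 92.9 CPM in normal, 41.8, 54.7 and 73.2 CPM in delayed, 36.7, 102 and 64.4 CPM in nonunion hematomas, and 27.6, 23.4 and 19.0 CPM in femur. All 9 hematoma libraries were above the 3 femur libraries, while the hematoma groups overlapped. The log2 fold change against femur was 1.86 in normal (SE 0.36, adjusted p = 0.00221), 1.28 in delayed (SE 0.35, adjusted p = 0.0196) and 1.53 in nonunion hematomas (SE 0.35, adjusted p = 0.00872). The delayed call was lost without femur library 3 (1.15, adjusted p = 0.0817), and on log2(TPM + 1) values it was 1.79 with an adjusted p of 0.0710, where the nonunion call was lost as well (1.21, adjusted p = 0.293). No comparison among hematomas passed, with log2 fold changes of -0.61 for delayed (SE 0.38, adjusted p = 0.343) and -0.41 for nonunion (SE 0.38, adjusted p = 0.580) against normal. Pros1 was most like Fkbp9, a chaperone of the endoplasmic reticulum (r = 0.974), and Srpx (r = 0.973).

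The 2 enzymes at the core of the cycle, Ggcx and Vkorc1, were also higher in every hematoma group than in femur. Ggcx stood at 94.6, 99.5 and 104 CPM in normal, 58.0, 68.5 and 98.0 CPM in delayed, 62.2, 69.5 and 74.9 CPM in nonunion hematomas, and 22.7, 19.5 and 20.6 CPM in femur. No hematoma library came near the femur range. Its log2 fold change against femur was 2.25 in normal (SE 0.22, adjusted p = 0.000103), 1.84 in delayed (SE 0.22, adjusted p = 0.000315) and 1.72 in nonunion hematomas (SE 0.22, adjusted p = 0.00046). Of these only the nonunion call was lost in an alternative, with log2(TPM + 1) values (1.52, adjusted p = 0.213). TPM were not scaled between libraries. The Ggcx TPM was 6.65 in nonunion library 2, beside 37.8 and 42.7 in nonunion libraries 1 and 3. Among hematomas the values of -0.42 for delayed (SE 0.25, adjusted p = 0.323) and -0.60 for nonunion (SE 0.26, adjusted p = 0.229) against normal did not pass. Ggcx was most like the matrix proteoglycan gene Bgn (r = 0.989), Ext2, which extends heparan sulfate chains (r = 0.986), and Vangl1 (r = 0.985).

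Vkorc1 stood at 68.9, 132 and 91.8 CPM in normal, 20.9, 22.2 and 29.4 CPM in delayed, 17.8, 36.4 and 38.7 CPM in nonunion hematomas, and 11.0, 10.5 and 9.68 CPM in femur. Normal libraries were above all others and femur libraries below all others. Against femur the log2 fold change was 3.23 in normal (SE 0.35, adjusted p = 0.000139), 1.22 in delayed (SE 0.33, adjusted p = 0.0175) and 1.57 in nonunion hematomas (SE 0.33, adjusted p = 0.00542). With the length correction the normal value was 2.60 (adjusted p = 0.000201). The delayed call was lost without femur library 3 (1.17, adjusted p = 0.0661) and on log2(TPM + 1) values (1.88, adjusted p = 0.0830), as was the nonunion call (1.35, adjusted p = 0.283).

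Vkorc1 was 4.04-fold lower in delayed than in normal hematomas (log2 fold change -2.02, SE 0.37, adjusted p = 0.0187) and 3.28-fold lower in nonunion (-1.71, SE 0.36, adjusted p = 0.0461). With the length correction both calls were lost (-1.22, adjusted p = 0.0738, and -0.95, adjusted p = 0.190). The delayed call was also lost without normal library 2 (-1.74, 0.0578), normal library 3 (-2.03, 0.0633) or delayed library 1 (-1.92, 0.0740) and on log2(TPM + 1) values (-1.53, 0.565). The nonunion call was lost without any 1 normal or nonunion library, with adjusted p of at most 0.141. It was also lost without delayed library 1 (adjusted p = 0.0709) or 3 (adjusted p = 0.0692), and in 16 of its 20 alternatives in all. Vkorc1 was most like Fkbp7 (r = 0.990), Tctn2 (r = 0.975) and Cnih1 (r = 0.973). In femur comparisons, summed fibroblast markers moved the same way as these enzymes, at 9422 to 17669 CPM in normal, 6125 to 14507 CPM in delayed and 6445 to 13494 CPM in nonunion hematomas, and 794 to 1596 CPM in femur. Of the 5 fibroblast markers, 5, 4 and 4 were higher than in femur, respectively, against 20.5%, 12.6% and 13.5% of all tested genes. The part of fibroblasts in the enzyme levels was not tested.

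Vkorc1l1 had the lowest mean CPM of the enzymes in the hematoma groups and passed no test. It stood at 14.3, 13.2 and 13.2 CPM in normal, 8.52, 9.18 and 7.95 CPM in delayed, 9.10, 15.3 and 8.85 CPM in nonunion hematomas, and 12.3, 9.72 and 10.5 CPM in femur. Delayed libraries were below all normal and all femur libraries, and nonunion library 2 was the highest of all. The log2 fold changes were -0.69 for delayed against normal (SE 0.31, adjusted p = 0.195) and 0.32 for normal against femur (SE 0.27, adjusted p = 0.355). Car5b (r = 0.961), Cst3 (r = 0.915) and Sft2d3 (r = 0.892) were most like it.

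**Figure D3:**
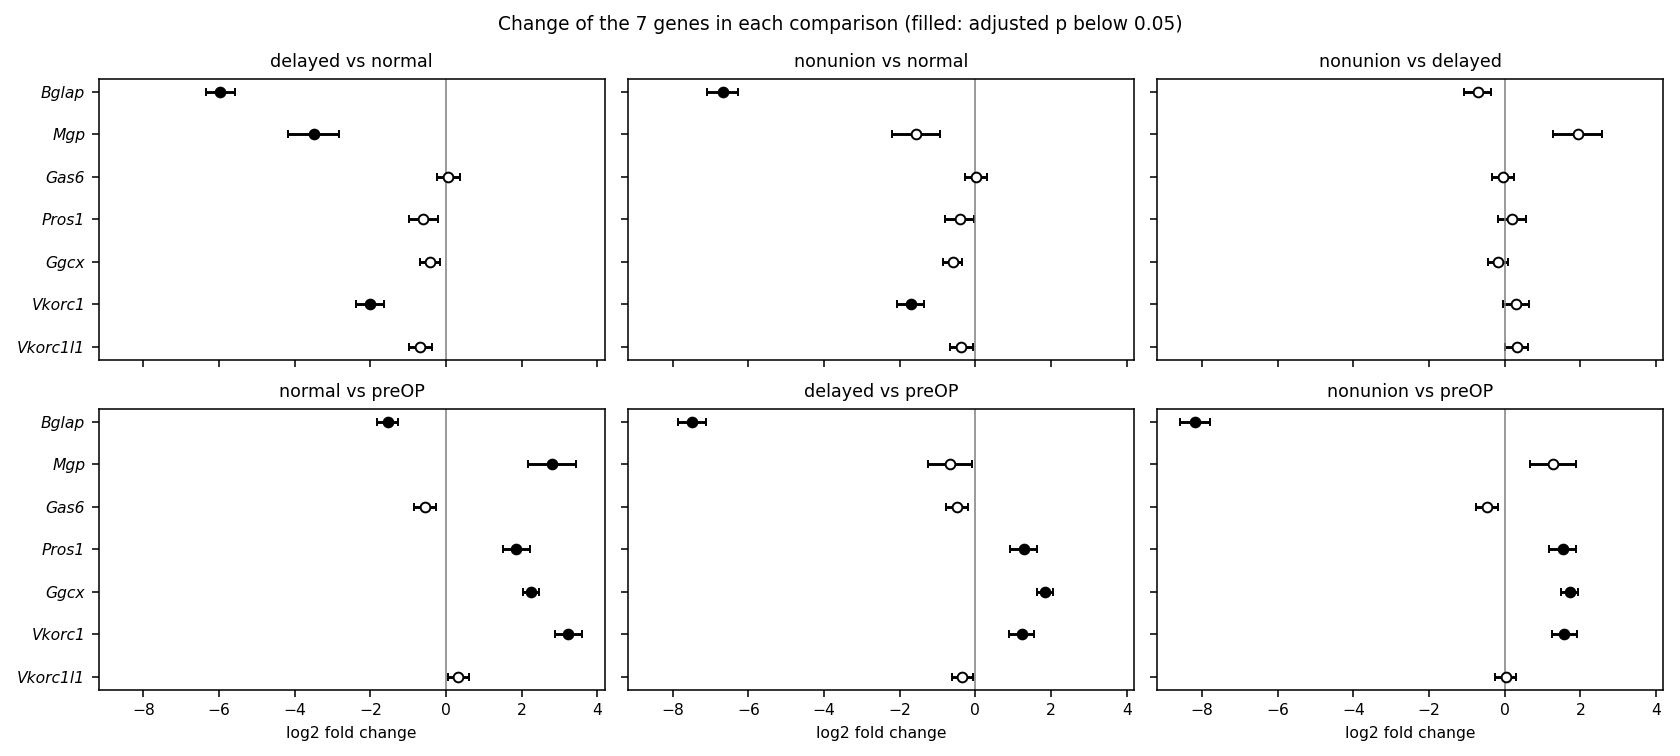
Log2 fold change (bars, SE) of the 7 genes in the 6 comparisons; filled points passed an adjusted p of 0.05 in edgeR. Bglap lies left of 0 in every panel, whereas Pros1, Ggcx and Vkorc1 lie right of 0 in the 3 comparisons with femur.

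Counted by comparison, 3 of the 7 genes (Bglap, Mgp and Vkorc1, all lower) were called in delayed against normal hematomas, where 7.12% of all 12474 tested genes were called (higher for 2.68%, lower for 4.44%), and 4 of 7 did not overlap between groups against 36.5% of all. In nonunion against normal, 2 of 7 (Bglap and Vkorc1, both lower) were called against 2.37% of all (higher for 0.89%, lower for 1.48%), and 3 of 7 did not overlap against 29.6%. With the length correction Bglap alone was called in each. In nonunion against delayed, edgeR called 0 genes of 12474, and 881 had an unadjusted p under 0.05, Mgp among the 7. DESeq2 called 184 genes and limma-voom 0, with none of the 7 among them. The groups did not overlap for 1 of the 7, Mgp, against 8.91% of all. Against femur, 5 of 7 were called in normal hematomas (4 higher, 1 lower) against 42.6% of all (higher for 20.5%, lower for 22.1%), a background high enough that the count says little about these genes. In delayed and nonunion hematomas 4 of 7 were called (3 higher, 1 lower), against 28.2% of all in delayed (higher for 12.6%, lower for 15.6%) and 28.4% in nonunion (higher for 13.5%, lower for 14.9%). In those 3 comparisons 6, 5 and 5 of 7 did not overlap, against 66.9%, 52% and 49.1% of all, again near the background. These comparisons share the normal or the femur libraries, so their directions are not independent.

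The median log2 fold change of the 7 genes was -0.69 in delayed and -0.60 in nonunion against normal hematomas, beside 0.02 and -0.03 over all genes. Against femur it was 1.86 in normal, -0.34 in delayed and 1.28 in nonunion hematomas, beside -0.09, -0.03 and -0.00 over all genes.

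Levels of different genes were compared per length, in TPM. In femur Bglap was the most abundant of the 7 in all 3 libraries. In normal hematomas it came second after Mgp in all 3, and in the 6 delayed and nonunion libraries it was last. Mgp was 0.165 to 0.363 times as abundant as Bglap in femur, 2.20 to 6.88 times in normal, 14.9 to 36.3 times in delayed and 97.5 to 324 times in nonunion hematomas, so these ranges did not overlap. The last 2 ranges rest on 22 to 34 Bglap reads per delayed and 8 to 18 per nonunion library. In edgeR neither Bglap (adjusted p = 0.757) nor Mgp (adjusted p = 0.563) was called between these 2 groups. Gas6 exceeded Pros1 by 12.5 to 16.1 times in femur and by 2.11 to 6.21 times in the hematomas, whose 3 groups overlapped. Vkorc1 exceeded Vkorc1l1 by 1.38 to 1.70 times in femur, by 7.36 to 15.0 times in normal, and by 3.83 to 5.91 and 3.07 to 6.83 times in delayed and nonunion hematomas.

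**Figure D4:**
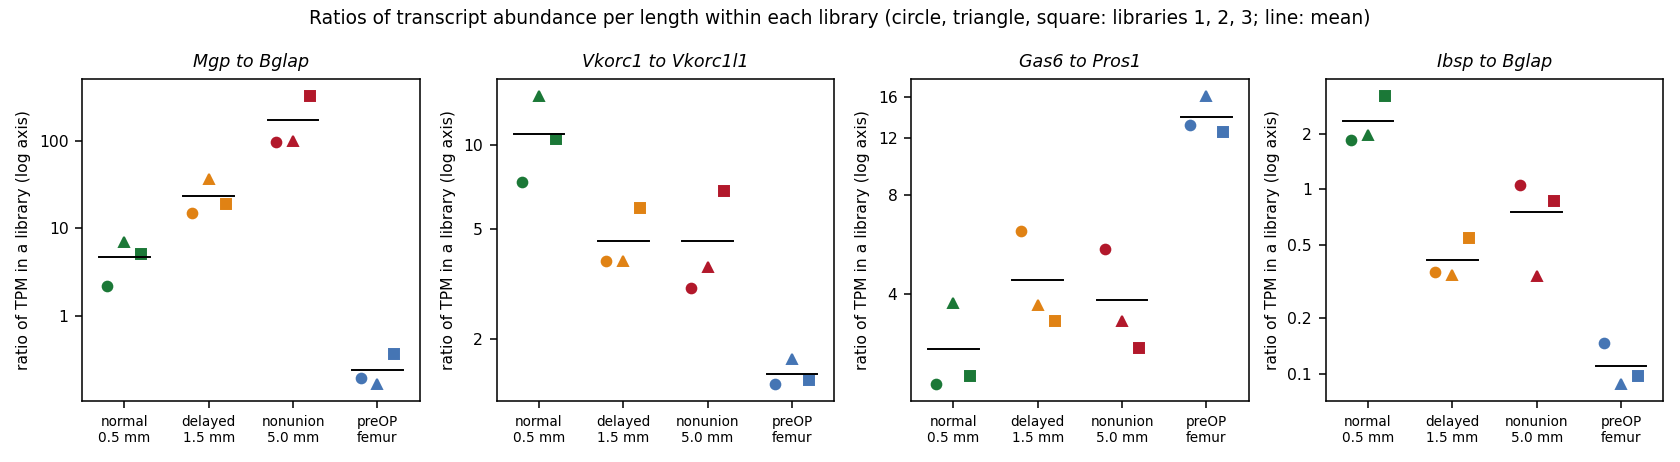
Ratios of TPM between gene pairs within each library on log axes, with symbols for libraries 1, 2 and 3 and lines for group means (n = 3). Mgp to Bglap spans 0.165 in femur to 324 in nonunion hematomas, and Ibsp to Bglap is at least 1.86 in normal hematomas and at most 0.146 in femur.

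Other genes of the pathway were read from 4 lists. Of 11 other Gla proteins, mostly clotting factors known as liver products and the membrane Prrg proteins, 9 were in the tables, 5 were tested among hematomas and 6 against femur. In edgeR none was called among hematomas, and F7, coagulation factor VII, was the 1 gene called against femur. DESeq2 also called Prrg4 higher than in femur in normal (1.92, adjusted p = 0.0328) and nonunion hematomas (1.99, adjusted p = 0.0359). F7 stood at 3.85, 5.19 and 8.32 CPM in femur and at 0.0768 to 0.308 CPM in the 9 hematoma libraries, with 2 or 3 reads in each, at or under the limit of 3 reads. It passed the low-count filter only through femur, so no fold change is given. The 4 hepatocyte markers summed to at most 1.84 CPM in every library other than nonunion 2, where they reached 36.5 CPM.

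Of 5 genes of vitamin K reduction, supply and Gla protein processing, 4 were higher in normal hematomas than in femur, 3 in delayed and 2 in nonunion, and none was lower. Of all tested genes, 20.5%, 12.6% and 13.5% were higher in these comparisons. Nqo1, a quinone reductase able to reduce vitamin K, stood at 17.5, 26.3 and 19.0 CPM in normal, 86.2, 39.1 and 63.6 CPM in delayed, 27.1, 29.1 and 25.3 CPM in nonunion hematomas, and 12.5, 10.5 and 11.6 CPM in femur. Every delayed library was above all other libraries. Against femur its log2 fold change was 0.86 in normal (adjusted p = 0.0318), 2.45 in delayed (adjusted p = 0.000344) and 1.24 in nonunion hematomas (adjusted p = 0.00917). The normal call was lost with the length correction (0.70, adjusted p = 0.0543) and without normal library 2 or 3 or any femur library (adjusted p of 0.0531 to 0.103). Nqo1 was the 1 gene of the lists called among hematomas, higher in delayed than in normal by 1.59 (SE 0.32, adjusted p = 0.0257), a call lost without normal library 1, 2 or 3 or delayed library 1 or 3 (adjusted p of 0.0506 to 0.0994) and on log2(TPM + 1) values (adjusted p = 0.375).

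Aifm2, also called Fsp1, which reduces vitamin K in cell membranes, was higher than in femur by 1.71 in normal (adjusted p = 0.0201), 1.94 in delayed (adjusted p = 0.0168) and 2.66 in nonunion hematomas (adjusted p = 0.00427). Nonunion library 2 held 126 CPM of it, beside 31.7 and 26.3 CPM in the other nonunion libraries and 7.77 to 11.8 CPM in femur. Without that library the Aifm2 value in nonunion was 1.74 and still passed. The normal call was lost without normal library 3 or femur library 2 or 3 (adjusted p of 0.0508 to 0.0717), and the delayed call without femur library 3 (adjusted p = 0.0701). Calu, whose product calumenin binds the carboxylase, was higher than in femur by 1.31 in normal (adjusted p = 0.0106) and 1.32 in delayed hematomas (adjusted p = 0.0149), and by 0.51 without a call in nonunion (adjusted p = 0.292). Without nonunion library 2 the Calu value in nonunion was 0.93 and passed (adjusted p = 0.0366), and without femur library 2 the delayed call was lost (1.43, adjusted p = 0.0550). On log2(TPM + 1) values both Calu calls were lost, with 1.69 in normal (adjusted p = 0.204) and 1.99 in delayed (adjusted p = 0.159).

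**Figure D5:**
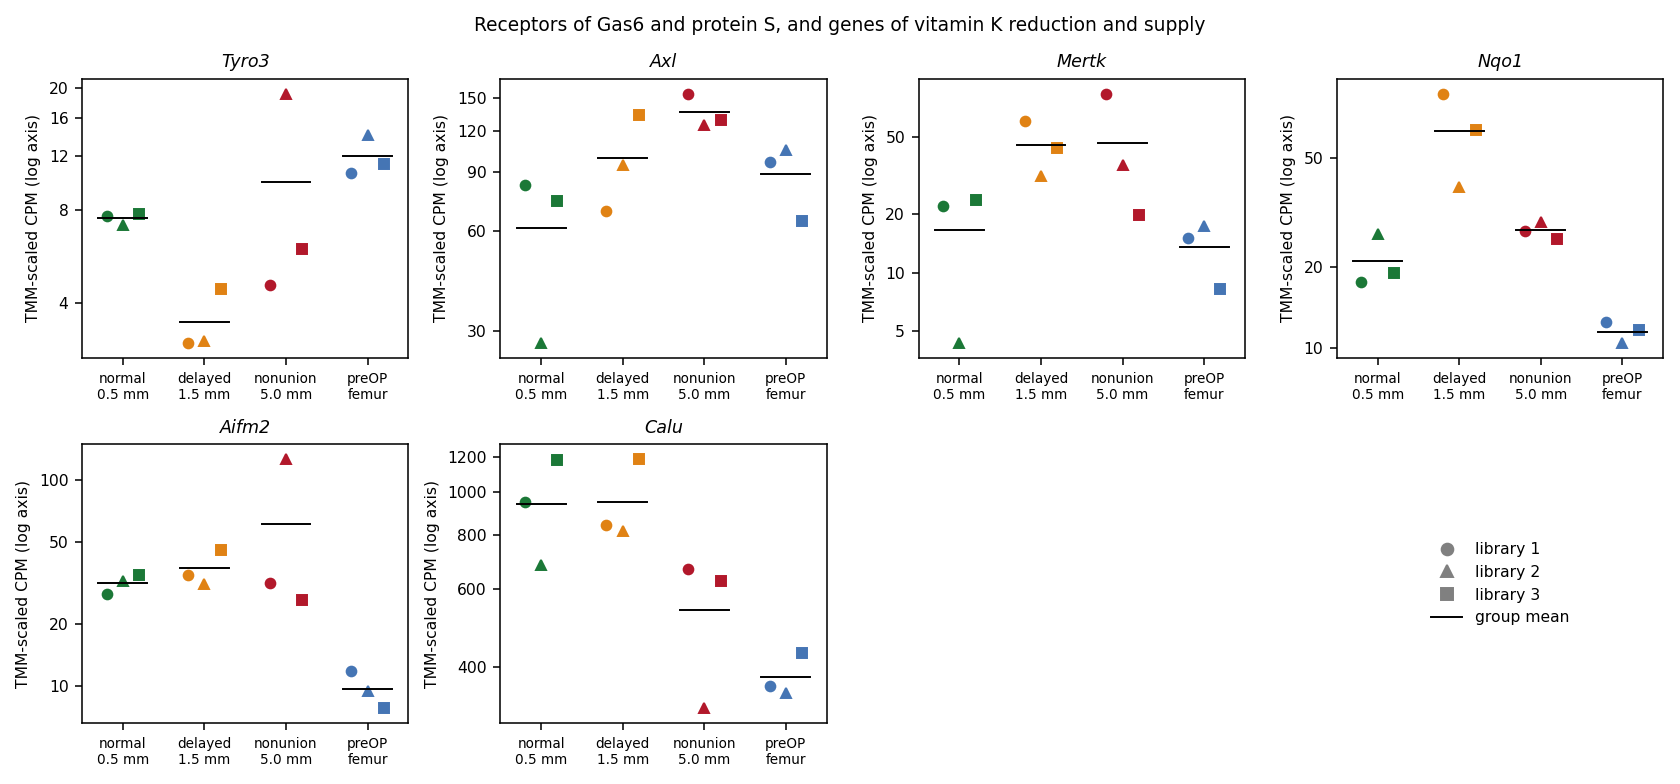
TMM-scaled CPM, on log axes, of the receptors Tyro3, Axl and Mertk and of Nqo1, Aifm2 and Calu in each library; symbols mark libraries 1, 2 and 3 and lines the group means (n = 3). Nqo1 is highest in the 3 delayed libraries, from 39.1 to 86.2 CPM, and nonunion library 2 stands above the rest of its group in Aifm2 and Tyro3.

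Of the 3 receptors of Gas6 and protein S, 1 call was made in all 6 comparisons. Tyro3 was lower in delayed hematomas than in femur (log2 fold change -1.79, SE 0.49, adjusted p = 0.0192), at 2.96, 2.99 and 4.44 CPM against 10.6, 14.0 and 11.3 CPM. That call was lost without delayed library 1 or 2 or femur library 1 or 2 (adjusted p of 0.0557 to 0.0889), and on log2(TPM + 1) values (-0.73, adjusted p = 0.176). In nonunion hematomas Tyro3 gave -0.29 (adjusted p = 0.691), and without nonunion library 2 it passed at -1.02 (adjusted p = 0.0349). Axl was the most abundant receptor in every library, at 55.9 to 85.7% of the summed TPM of the 3 in hematomas and 80.9 to 82.5% in femur. Its log2 fold change in nonunion against normal hematomas was 1.07 (SE 0.43, adjusted p = 0.207). Mertk, the receptor used by macrophages to take up dying cells, gave 1.73 in delayed (adjusted p = 0.0672) and 1.77 in nonunion hematomas against femur (adjusted p = 0.0617), short of the threshold. In DESeq2 both passed, at 1.87 (adjusted p = 0.0143) and 1.86 (adjusted p = 0.0152). Of 5 macrophage markers, 4 were higher than in femur in each of these groups, against 12.6% of all tested genes in delayed and 13.5% in nonunion. In normal hematomas 3 of 5 were higher as well, against 20.5% of all, while Mertk gave 0.30 (adjusted p = 0.727). Their part in its level was not tested. Of the 4 partners of protein S and protein C (Thbd, Procr, C4bpa and C4bpb), 2 were tested among hematomas and 4 against femur, and edgeR called none. Procr, the endothelial protein C receptor, was higher in normal hematomas than in femur by DESeq2 (1.21, adjusted p = 0.0280) and limma-voom (1.16, adjusted p = 0.0445), beside 1.14 in edgeR (adjusted p = 0.0574).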

How the data were processed

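RNA was extracted with Trizol and made into TruSeq libraries, per the labels' protocols. The submitters' processing notes name bcl2fastq 1.8.4, FastQC, Trimmomatic, Salmon and build rn6. The authors deposited 1 Salmon table per library, with expected counts (estimated reads) and TPM for 18321 RefSeq transcripts. Names matched 17367 transcripts, giving 16425 symbols, and 954 unnamed ones were kept. Expected counts were summed per gene and rounded to whole numbers. edgeR 4.0.16 (R 4.3.3) was run with TMM scaling, its default filter by group and quasi-likelihood F-tests, in 1 fit of the 9 hematoma libraries (12474 genes) and 1 fit of all 12 for comparisons with femur (12846 genes). A gene counted as called where its p, adjusted by Benjamini-Hochberg over every gene tested, was under 0.05. SE was taken as the log2 fold change over the root of F and is approximate. All 7 members passed the filter. The genes named are the 7 members, the 3 genes most correlated with each, and every called gene of the 4 pathway lists, except that 2 of these genes are not reported here. Axl, Mertk, F2, Prrg4, Procr and the cell type markers were named after their values were seen. The members and lists were chosen with earlier results of these data known. The code was tested on simulated data. Alternatives used DESeq2 1.42.0, limma 3.58.1 with log2(TPM + 1), other filters and offsets, and leaving out libraries. The log2(TPM + 1) values were not scaled between libraries, so they also carry the 72.24% of ribosomal RNA reads in nonunion library 2. Depth limits each value to 3 reads, covering counting error only. No 2 libraries were identical.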

Additional observations from a re-analysis of the deposited data

How the results depend on the processing

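Over 903 values of the 7 genes under alternatives, 865 kept their call or lack of one, 35 lost a call and 3 gained one. Changes of sign that involved a called value numbered 0. A change of sign between uncalled values was counted as kept, as for Gas6 in delayed against normal (-0.03 to 0.35). The count of genes called, 3 in delayed against normal hematomas, was 1 with limma on log2(TPM + 1), 1 with length-trend offsets (chosen after seeing the data) and 1 to 3 with each library left out. The count of 2 in nonunion against normal was 1 with DESeq2 size factors, without the count filter, with only the groups compared, with effective-length offsets, with log2(TPM + 1), without ribosomal RNA, without delayed 2 and nonunion 2, and with length-trend offsets, and 1 to 2 with each library left out. The count of 4 in delayed against femur was 2 with log2(TPM + 1) and 2 to 4 with each library left out, and that of 4 in nonunion against femur was 1 with log2(TPM + 1) and 4 to 5. The causes were not tested. Of the listed genes, F2 in delayed against femur reversed from 0.27 (not called) to -3.73 without delayed 2 and nonunion 2 and ran from -3.70 (without delayed replicate 2) to 0.91 with each library left out; delayed replicate 2 holds most of its reads in that group. With a replicate block the counts of the 7 genes called were 3, 2, 0, 5, 4 and 4, as without it, while Nqo1 in delayed against normal was not called with the block (1.55, adjusted p = 0.0628). Whether equal replicate numbers mark paired samples is not stated, and same-number correlations of -0.182 to 0.187 cannot decide it with 3 libraries a group. Over all genes the block called 433 instead of 888 in delayed against normal and 148 instead of 296 in nonunion against normal. With each library left out these all-gene counts ran from 175 to 1433 and from 23 to 446. With 3 libraries a group, the 8 to 34 reads of Bglap in the larger defects limit how well its level there is known.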
